A study of Mus musculus with 3 samples.

Results

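The mitochondrial respiratory chain and ATP synthase genes were followed on 3 Affymetrix arrays of cultured mouse mesenchymal progenitors. Members were all annotated genes whose symbol starts with Nduf, Sdh, Uqcr, Cox4, Cox5, Cox6, Cox7, Cox8, Cyc1 or Atp5, on probe sets assigned to exactly 1 gene. This name rule, which uses no measured value, took 92 of 17098 genes, though it was set with earlier results of these data known. Where a gene had several probe sets the one brightest on average was read. By complex, 40 members belong to complex I, 8 to complex II, 8 to complex III, 19 to complex IV and 17 to complex V, counting assembly factors with their complex.

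The progenitors, labelled PaS+, were sorted by FACS from the bone marrow of adult mice of the strain spelled C56Bl/6 in the labels, aged 8 weeks. They were kept in MesenCult complete medium, with 7 days of culture in 1% oxygen given in the labels. Lentiviral vectors carrying a short hairpin RNA (shRNA) were applied overnight, and RNA was collected 4 days after transduction. Cells for 1 array received an shRNA against HIF-1α, those for another an shRNA against HIF-2α, and those for the remaining array a control shRNA. Low oxygen and lentivirus were therefore shared by all groups, the control included. HIF-1α and HIF-2α are the subunits of the hypoxia-inducible transcription factors HIF-1 and HIF-2 that are stabilised in low oxygen. The labels give neither the hairpin sequences nor a count of hairpins or animals, and 1 array per shRNA leaves no measure of how cultures vary. No test was run and no p-value is given.

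The respiratory chain carries electrons from NADH (complex I) and succinate (complex II) through ubiquinol and complex III to cytochrome c, and complex IV passes them to oxygen. Complexes I, III and IV pump protons across the inner mitochondrial membrane, and complex V, the ATP synthase, makes ATP as the protons flow back. Most subunits are encoded in the nucleus, and these are the genes described here. In other cells HIF-1 is known to divert pyruvate away from mitochondria and to induce the variant subunits Ndufa4l2 and, in human and mouse cells, Cox4i2 in low oxygen. Progenitors of this kind are known for relying largely on glycolysis while undifferentiated.

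The targeted genes did not clearly separate the hairpins. Hif1a read 332.4 on the array labelled HIF-1α, 332.4 on the array labelled HIF-2α and 352.1 on the control array, so both shRNA arrays stood at 94.4% of control. Epas1, which encodes HIF-2α, read 9.44 (shHIF-1a), 3.21 (shHIF-2a) and 5.09 (control), and the highest of 23 nonspecific control probe sets read 3.47. Epas1 was thus lowest under its own hairpin, where it lay under that value, and it was dim on all 3 arrays. The arrays are for this reason named by their label, as shHIF-1a-labelled and shHIF-2a-labelled (shHIF-1a and shHIF-2a in brackets beside a value), and every direction given depends on it. Of 11 mesenchymal markers on the array, 10 lay above the nonspecific level on every array, and 4 were measured. Of these 4, 3 were at no more than 80% of control on the shHIF-2a-labelled array, 2 of them lower by 2-fold, with a median log2 difference of −0.88. Cxcl12, a niche chemokine, read 177.9 (shHIF-1a) and 72.3 (shHIF-2a), against 249.96 (control). Col1a1, a collagen chain, read 126.9 (shHIF-1a) and 48.1 (shHIF-2a), against 130.4 (control), and Nt5e, which encodes CD73, read 457.6 (shHIF-1a) and 323.7 (shHIF-2a), against 407.1 (control). Cd44, at 538.9 (shHIF-1a) and 576.5 (shHIF-2a), against 500.5 (control), was not among the 3. The dimmer markers above the nonspecific level did not share 1 direction on the shHIF-2a-labelled array. Pdgfra, at 51.6 (shHIF-1a) and 47.9 (shHIF-2a), against 38.2 (control), was above control there, as were Eng and Lepr. Pdgfrb and Thy1 were below control there, and Vcam1 was equal to it. Of 9 haematopoietic markers, 1 or 2 lay above the nonspecific level, depending on the array. Cd14 did so on every array, at 87.8 (shHIF-1a), 93.2 (shHIF-2a) and 93.4 (control), and so was measured. Cd68 did so on the shHIF-2a-labelled array alone, at 3.02 (shHIF-1a), 7.24 (shHIF-2a) and 1.59 (control). Ptprc, which encodes CD45, read 1.05 on every array. Of 7 endothelial markers, 1 lay above the nonspecific level, Egfl7, at 5.45 on both shRNA arrays and 4.64 on control. Pecam1 read 0.86 (shHIF-1a), 0.90 (shHIF-2a) and 1.06 (control). The summed mesenchymal marker level was 1423 (shHIF-1a), 1125 (shHIF-2a) and 1387 (control). The adipocyte marker sum, most of it Fabp4, was 406.5 (shHIF-1a), 169.7 (shHIF-2a) and 303.5 (control). The 18 hybridisation controls, RNA added before hybridisation, had a median log2 difference from control of 0.08 on the shHIF-1a-labelled array and −0.84 on the shHIF-2a-labelled array. How marker sums and these controls bear on the differences given next was not tested. In bulk RNA, fewer cells of a type and less RNA per cell cannot be told apart.

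Most of these genes gave a signal well above the nonspecific level in the progenitors. A gene counted as measured where any array gave it an intensity of 64 or more (6 on the log2 scale), and 74 of the 92 members did (80.4%), against 2738 of 17098 genes (16.01%). The measured members ranged from 52.2 to 863.2 with a median of 196.8 on the shHIF-1a-labelled array, and from 72.6 to 931.6 with a median of 195.6 on the shHIF-2a-labelled array. They ranged from 41.9 to 847.4 with a median of 194.8 on the control array. In all, 73 of the 74 reached the minimum on every array. The exception was Ndufaf4, which reached it on the shHIF-2a-labelled array alone and so was kept through the array on which it is high. All 8 members of complex III and all 17 of complex V were measured, with 34 of 40 in complex I, 12 of 19 in complex IV and 3 of 8 in complex II. Of the 18 that were not, 14 lay above the nonspecific level on every array and 4 lay under it on every array. These 4 were the isoform genes Cox6a2, Cox7b2, Cox8b and Cox8c.

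The first comparison concerns progenitors given the hairpin against HIF-2α at low oxygen, set against those given the control hairpin. A difference counted where a gene was at least 25% higher than on the other array (0.32 on the log2 scale), or lower by the same factor, at no more than 80% of it. Of the 74 measured members, 4 were higher by this threshold on the shHIF-2a-labelled array and 1 was lower. Over all 2738 measured genes, 14.5% were higher by that much, 7.34% were lower and 21.8% differed either way, so the members' share, 6.76%, lay under the background. The 4 higher genes were the complex I genes Ndufaf4, Ndufb8 and Ndufb2 and the complex III gene Uqcrc1, and the lower one was Ndufa4l2, of complex IV. No member differed by 2-fold, where 1.68% of all genes were higher and 0.84% lower, 2.52% in all. After cyclic loess scaling the split was 2 higher and 2 lower among members, and 264 higher and 254 lower over all genes, where the deposited values gave 396 and 201. The median log2 difference of the members was 0.01 and that of all genes 0.02.

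**Figure D1:**
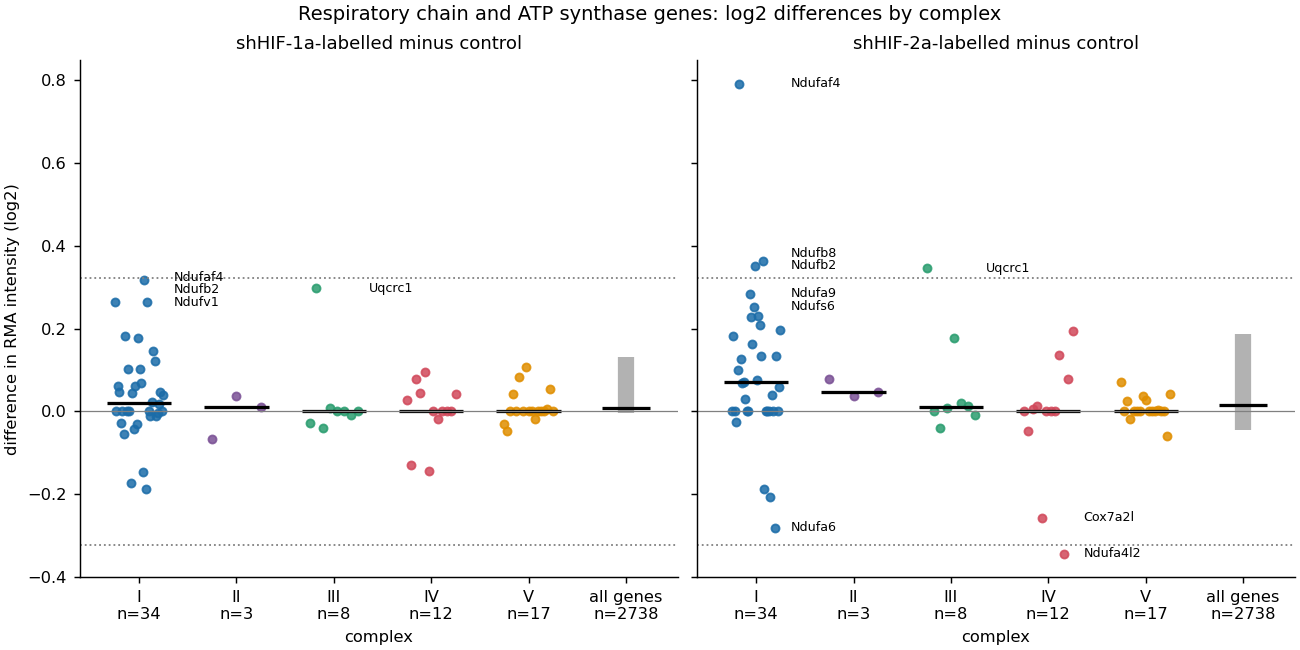
Each point is 1 measured member and shows its log2 difference in RMA intensity from control, for the shHIF-1a-labelled array (left) and the shHIF-2a-labelled array (right), by complex. Black bars are medians, the grey bar spans the lower to the upper quartile of all 2738 measured genes, and dotted lines mark the threshold of 0.32 either way. Of the members, 5 lie outside the lines in the right panel and none in the left, and the points of complex V lie between −0.06 and 0.11 over both panels.

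Ndufaf4 encodes an assembly factor that acts early in building complex I. It read 52.2 on the shHIF-1a-labelled array, 72.6 on the shHIF-2a-labelled array and 41.9 on the control array. The shHIF-2a-labelled array was the highest and control the lowest, with a log2 difference of 0.79, or 1.73-fold. A second, dimmer Ndufaf4 probe set stood in the same order, at 10.5 (shHIF-1a), 12.2 (shHIF-2a) and 5.40 (control).

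Ndufb8, an accessory subunit of the membrane arm of complex I, read 169.1 and 202.7 on the shHIF-1a-labelled and shHIF-2a-labelled arrays, against 157.5 on control. On this probe set the shHIF-2a-labelled array was the highest, with a log2 difference from control of 0.36. A second, dimmer Ndufb8 probe set read 14.0 on both shRNA arrays, against 9.86 on control, and so did not set the hairpins apart. Ndufb2, another accessory subunit of that arm, read 123.4 (shHIF-1a) and 131.1 (shHIF-2a), against 102.7 (control). Both shRNA arrays were above control here, by 0.27 (shHIF-1a) and 0.35 (shHIF-2a). Its other measured probe set, at 77.5 (shHIF-1a) and 80.6 (shHIF-2a), against 75.7 (control), gave only 0.03 (shHIF-1a) and 0.09 (shHIF-2a), so the 2 probe sets of Ndufb2 fall on different sides of the threshold.

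Uqcrc1 encodes core protein 1 of complex III, a relative of the mitochondrial processing peptidases. It read 125.4 and 129.6 on the shHIF-1a-labelled and shHIF-2a-labelled arrays, against 101.9 on control, with log2 differences of 0.30 (shHIF-1a) and 0.35 (shHIF-2a). The shRNA arrays were close to each other and both above control.

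Promoters of the 3 higher genes that hold the same short motif are shown because nuclear respiratory factor 1 (NRF1), a known activator of respiratory chain genes, binds a palindrome made of that motif. The sequences are from RefSeq, build GRCm38.p6, from 250 bases before to 50 bases after the annotated start, 5′ to 3′ on the gene's strand. Capitals mark GCGCATG or its reverse complement CATGCGC, which overlap where both occur in 1 run. The windows are chr4:24897833-24898132 on the plus strand for Ndufaf4, chr9:108936398-108936697 on the plus strand for Uqcrc1 and chr19:44555393-44555692 on the minus strand for Ndufb8.
Ndufaf4: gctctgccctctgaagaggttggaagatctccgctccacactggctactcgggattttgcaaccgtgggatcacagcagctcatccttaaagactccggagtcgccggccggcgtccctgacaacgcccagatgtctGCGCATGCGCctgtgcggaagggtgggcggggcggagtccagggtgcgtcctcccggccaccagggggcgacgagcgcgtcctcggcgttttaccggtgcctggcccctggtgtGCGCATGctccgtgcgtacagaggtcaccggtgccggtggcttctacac
Uqcrc1: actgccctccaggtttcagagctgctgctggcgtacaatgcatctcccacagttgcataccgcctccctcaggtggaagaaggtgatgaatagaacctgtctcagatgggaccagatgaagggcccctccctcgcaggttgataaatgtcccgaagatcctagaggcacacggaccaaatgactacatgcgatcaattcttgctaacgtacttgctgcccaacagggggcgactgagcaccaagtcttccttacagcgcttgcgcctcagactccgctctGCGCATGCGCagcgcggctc
Ndufb8: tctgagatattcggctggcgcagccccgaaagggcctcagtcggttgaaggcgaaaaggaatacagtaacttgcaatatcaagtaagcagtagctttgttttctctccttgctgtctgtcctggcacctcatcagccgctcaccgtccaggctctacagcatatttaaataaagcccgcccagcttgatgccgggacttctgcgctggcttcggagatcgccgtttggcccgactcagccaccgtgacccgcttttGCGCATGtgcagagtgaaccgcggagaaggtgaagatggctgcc

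The Ndufaf4 window held the run of 10 bases at positions 138 to 147 and a further match at 252 to 258, the Uqcrc1 window held the run at 281 to 290, and the Ndufb8 window held 1 match at 257 to 263. RefSeq promoters were found for 74 of the 92 members. GCGCATG or CATGCGC occurred in 14 of their 79 promoters (17.7%), against 3.91% of all 32851 promoters and 4.802% of those of protein-coding genes. The other holders were Ndufa6, Ndufa8, Ndufa11, Ndufaf5, Sdhb, Uqcr11, Cox5b, Cox6a1, Atp5g2, Atp5k and Atp5l. CCGGAAG or CTTCCGG, letters of the ETS family that includes GABP, occurred in 25.3% of member promoters, against 8.86% of all and 11.6% of those of protein-coding genes. ACGTG or CACGT, the core that HIF binds, occurred in 25.3% of member promoters, against 19.6% and 20.9%, and in none of the 3 windows printed. The 3 windows were picked for both the threshold and the letters, so no comparison of differences between members with and without the letters is given. Nrf1 itself was near the nonspecific level, at 3.75 (shHIF-1a), 3.75 (shHIF-2a) and 2.69 (control). A match in these windows describes letters and not a bound site.

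Within complex I, 21 of the 34 measured members were above control on the shHIF-2a-labelled array, 4 were below and 9 were exactly equal, with a median of 0.07. Over all measured genes 52.7% were above and 30.6% below. The 6 core subunits, of the matrix arm that carries the flavin and the iron-sulphur clusters, had a median of 0.17, and none was past the threshold. Ndufv1, which binds NADH and the flavin, read 111.2 and 108.6 on the shHIF-1a-labelled and shHIF-2a-labelled arrays, against 92.6 on control. On this probe set both shRNA arrays were above control, by 0.26 (shHIF-1a) and 0.23 (shHIF-2a). The other measured Ndufv1 probe set read 63.3 (shHIF-1a) and 65.9 (shHIF-2a), against 63.3 (control). It gave only 0 (shHIF-1a) and 0.06 (shHIF-2a). Ndufv2, the iron-sulphur partner of Ndufv1, read 258.2 (shHIF-1a), 296.1 (shHIF-2a) and 258.2 (control), and only the shHIF-2a-labelled array differed, by 0.20.

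Ndufs8, which holds clusters near the ubiquinone site, read 139.7 on both shRNA arrays, against 123.0 on control, a difference of 0.18 on each. Ndufs1, the largest subunit of the matrix arm, read 76.2 (shHIF-1a) and 81.8 (shHIF-2a), against 73.0 (control), and was higher by 0.06 (shHIF-1a) and 0.16 (shHIF-2a). The remaining core genes were nearly level: Ndufs3 was 155.3 (shHIF-1a) and 159.7 (shHIF-2a), against 153.2 (control), and Ndufs7 was 109.2 (shHIF-1a) and 111.3 (shHIF-2a), against 111.3 (control).

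The 26 accessory subunits of complex I had a median of 0.05 on the shHIF-2a-labelled array against control, with 15 above, 4 below and 7 equal. Ndufa9, which sits where the arms of the complex meet, read 92.8 and 105.2 on the shHIF-1a-labelled and shHIF-2a-labelled arrays, against 86.4 on control, with a shHIF-2a-labelled difference of 0.28. Ndufs6, a zinc-binding subunit added late in assembly, read 144.4 (shHIF-1a) and 169.4 (shHIF-2a), against 142.1 (control), a difference of 0.25. In both genes the shHIF-2a-labelled array was the highest. By the chosen probe sets, 16 of the other accessory subunits lay between 0 and 0.13 above control, among them the membrane-arm genes Ndufa3 and Ndufa11 at 0.13 each. For 2 of them a second measured probe set lay higher. For Ndufb5 it gave 0.18 (shHIF-1a) and 0.31 (shHIF-2a), where the chosen one gave −0.04 (shHIF-1a) and 0.03 (shHIF-2a). For Ndufc1 it gave 0.03 (shHIF-1a) and 0.23 (shHIF-2a), where the chosen one gave −0.06 (shHIF-1a) and 0 (shHIF-2a).

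Ndufab1, the mitochondrial acyl carrier protein, read 230.2 and 275.6 on the shHIF-1a-labelled and shHIF-2a-labelled arrays, against 235.0 on control. The probe set chosen for it gave −0.03 (shHIF-1a) and 0.23 (shHIF-2a), and a second measured one gave 0.37 (shHIF-1a) and 0.63 (shHIF-2a). The same held for Ndufa12, where the chosen probe set gave 0.05 (shHIF-1a) and 0.21 (shHIF-2a) and another gave 0.19 (shHIF-1a) and 0.43 (shHIF-2a). Both genes were thus above control on the shHIF-2a-labelled array by either probe set, and past the threshold only by the dimmer one.

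The accessory subunits below control on the shHIF-2a-labelled array were Ndufa6, Ndufv3, Ndufa5 and Ndufb10, and none reached the threshold. Ndufa6, a LYR protein that holds the acyl carrier protein in the complex, read 111.8 and 103.7 on the shHIF-1a-labelled and shHIF-2a-labelled arrays, against 126.0 on control, or −0.17 (shHIF-1a) and −0.28 (shHIF-2a). Ndufv3, a small subunit of the NADH-binding module, read 441.6 (shHIF-1a) and 423.0 (shHIF-2a), against 488.3 (control), or −0.14 (shHIF-1a) and −0.21 (shHIF-2a). Ndufa5, of the matrix arm, read 77.3 on both shRNA arrays, against 88.0 on control. Control was the highest array for each of these 3 genes, whereas Ndufb10, at 82.7 (shHIF-1a) and 81.2 (shHIF-2a), against 82.7 (control), was nearly level.

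Complex II, the succinate dehydrogenase of the citrate cycle, varied little. Sdha, its flavoprotein, read 166.6 and 180.3 on the shHIF-1a-labelled and shHIF-2a-labelled arrays, against 174.5 on control. Sdhb, its iron-sulphur subunit, read 164.1 (shHIF-1a) and 172.2 (shHIF-2a), against 163.0 (control), and Sdhc, a membrane anchor, read 99.0 on both shRNA arrays, against 96.4 on control. On the chosen probe sets, all 3 differences on the shHIF-2a-labelled array were between 0.04 and 0.08. A second measured Sdha probe set gave 0.13 (shHIF-1a) and 0.08 (shHIF-2a), where the chosen one gave −0.07 (shHIF-1a) and 0.05 (shHIF-2a). The probe sets of Sdha thus differed in sign on the shHIF-1a-labelled array. Sdhd, the other anchor, was seen only by a probe set marked as partly similar to other transcripts, at 8.11 (shHIF-1a) and 8.17 (shHIF-2a), against 8.17 (control), and whether it reads Sdhd alone was not tested.

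In complex III the median was 0.01, and apart from Uqcrc1 the highest member was Cyc1, the cytochrome c1 that hands electrons to cytochrome c. It read 106.1 and 122.3 on the shHIF-1a-labelled and shHIF-2a-labelled arrays, against 108.2 on control, or −0.03 (shHIF-1a) and 0.18 (shHIF-2a). Only the shHIF-2a-labelled array stood apart. Uqcrfs1, the Rieske iron-sulphur protein, read 92.8 (shHIF-1a) and 94.1 (shHIF-2a), against 92.8 (control), and Uqcrc2, core protein 2, read 194.8 (shHIF-1a) and 196.5 (shHIF-2a), against 194.8 (control). The 4 small subunits Uqcrb, Uqcrq, Uqcr10 and Uqcr11 lay between −0.04 and 0.01.

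Complex IV held the only member past the threshold on the lower side of control on the shHIF-2a-labelled array. Ndufa4l2, the variant of Ndufa4 known to be induced by HIF-1 and to lower oxygen use in other cells, read 233.0 and 178.4 on the shHIF-1a-labelled and shHIF-2a-labelled arrays, against 226.3 on control. Only the shHIF-2a-labelled array was low, at −0.34 or 1.27-fold lower, and the gene has 1 probe set. Ndufa4, first assigned to complex I and now to complex IV, read 277.9 (shHIF-1a) and 260.2 (shHIF-2a), against 260.2 (control), and was equal on the shHIF-2a-labelled and control arrays.

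Cox7a2l, known in some other cells to join complexes III and IV in supercomplexes, read 152.7 and 139.7 on the shHIF-1a-labelled and shHIF-2a-labelled arrays, against 166.9 on control. These were differences of −0.13 (shHIF-1a) and −0.26 (shHIF-2a). All 3 of its measured probe sets were lower on the shHIF-2a-labelled array than on control, from −0.46 to −0.26, and from −0.21 to −0.13 on the shHIF-1a-labelled array. Cox5a read 397.4 (shHIF-1a) and 441.0 (shHIF-2a), against 385.3 (control), and its 3 probe sets lay between 0.19 and 0.38 on the shHIF-2a-labelled array. Cox6a1 read 863.2 (shHIF-1a) and 931.6 (shHIF-2a), against 847.4 (control), a difference of 0.14 on the shHIF-2a-labelled array, and its other measured probe set gave 0.01. The remaining measured genes of complex IV, Cox4i1, Cox5b, Cox6b1, Cox6c, Cox7a2, Cox7c and Cox8a, lay between −0.05 and 0.08 there.

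Complex V, the ATP synthase, differed little between arrays. Its 17 genes lay between −0.06 and 0.07 on the shHIF-2a-labelled array against control, and between −0.05 and 0.11 on the shHIF-1a-labelled array, with 8 exactly equal to control on each. Atp5b, the catalytic beta subunit, read 413.8 and 421.9 on the shHIF-1a-labelled and shHIF-2a-labelled arrays, against 413.8 on control, and Atp5a1, the alpha subunit, read 238.2 (shHIF-1a) and 243.1 (shHIF-2a), against 243.1 (control). Atp5h, a stalk subunit, was the lowest on the shHIF-2a-labelled array, at 317.6 against 331.1 on control, and Atp5k, a small membrane subunit, the highest, at 278.3 against 264.8 on control. Neither end of the range was near the threshold.

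**Figure D2:**
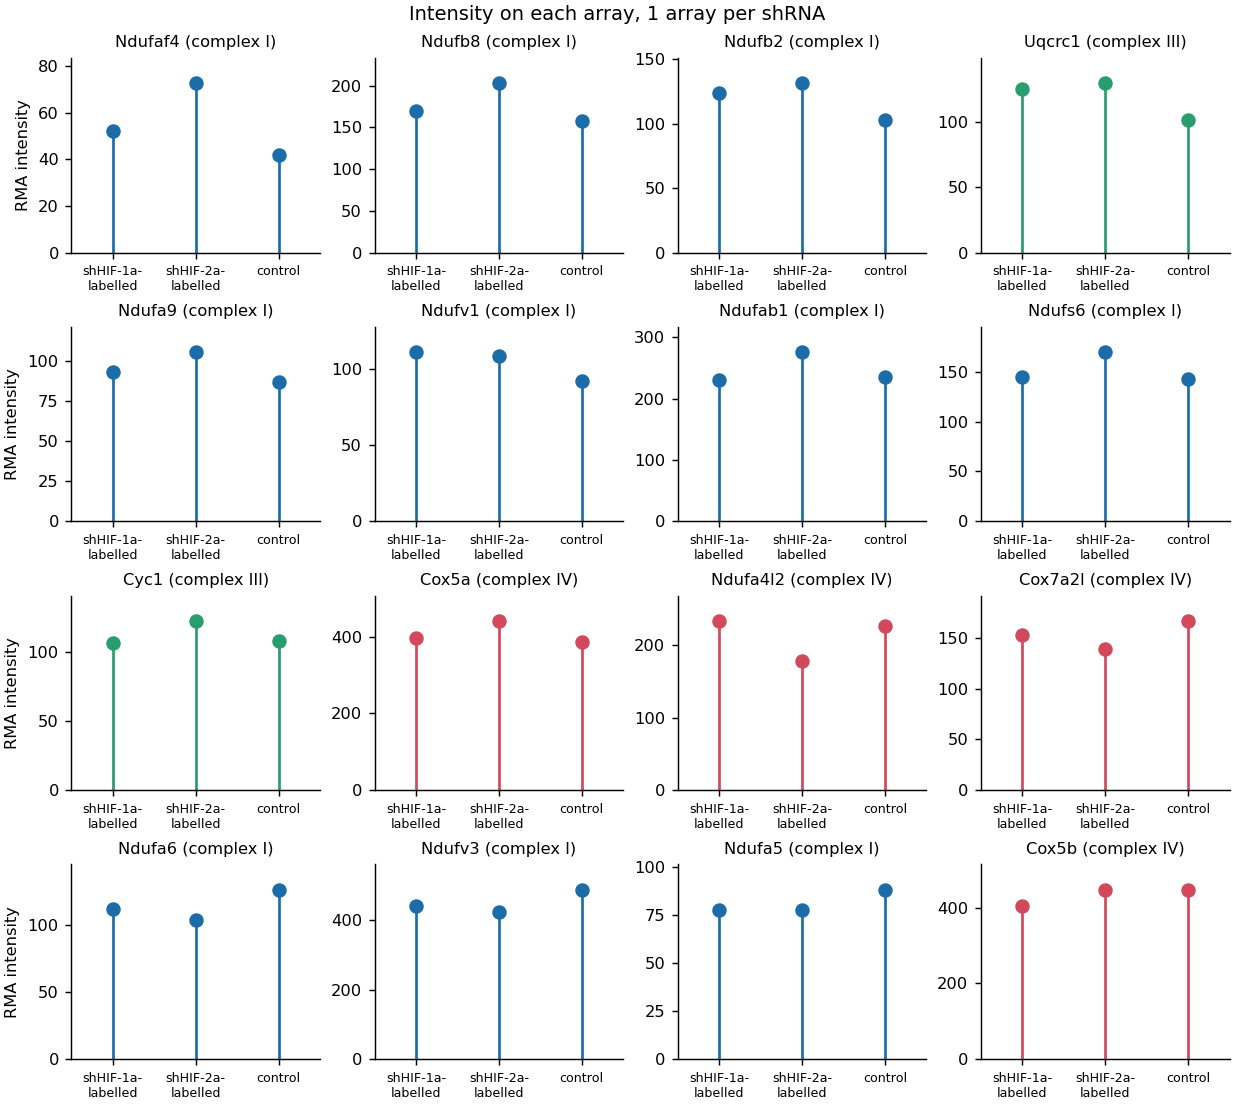
RMA intensity (linear, axes from 0) of 16 members on the shHIF-1a-labelled, shHIF-2a-labelled and control arrays, 1 array each, with no error bars because there are no replicates. On the probe sets shown, Ndufaf4 and Ndufb8 are highest on the shHIF-2a-labelled array. Uqcrc1 and Ndufv1 are higher there on both shRNA arrays than on control, and Ndufa4l2 is low on the shHIF-2a-labelled array alone.

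For the hairpin against HIF-1α the question is the same, with the shHIF-1a-labelled array set against control. Of the 74 measured members 0 were past the threshold in either direction, where 7.09% of all measured genes were higher and 1.06% lower, with 8.14% either way. None differed by 2-fold, where 1.06% of all genes were higher and 0 were lower. The members' median log2 difference was 0.00 and that of all genes 0.01. After cyclic loess scaling the split over all genes was 129 higher and 48 lower, where the deposited values gave 194 and 29. By the chosen probe sets, the highest members were Ndufaf4 (0.32, just under the threshold), Uqcrc1 (0.30), Ndufb2 (0.27), Ndufv1 (0.26) and Ndufs8 (0.18). Ndufs4, an accessory subunit of the matrix arm, read 93.4 and 90.2 on the shHIF-1a-labelled and shHIF-2a-labelled arrays, against 82.7 on control, so both shRNA arrays were above control.

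By the chosen probe sets, the lowest members on the shHIF-1a-labelled array were Ndufa5 (−0.19), Ndufa6 (−0.17), Ndufv3 (−0.14), Cox5b (−0.14) and Cox7a2l (−0.13). Cox5b, a zinc-binding subunit of complex IV, was low on the shHIF-1a-labelled array alone, at 404.7, against 447.0 on the shHIF-2a-labelled array and 447.0 on control. Its second measured probe set gave −0.11. By complex, the shHIF-1a-labelled medians were 0.02 for complex I, 0.01 for complex II and 0 for complexes III, IV and V. Both comparisons with control use the same control array, so a gene that was high or low on that array alone differs in the same direction in both.

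Between the hairpins, 1 member was past the threshold on the higher side on the shHIF-2a-labelled array, relative to the shHIF-1a-labelled array, and 1 on the lower side, where 7.6% of all measured genes were higher and 9.02% lower. By 2-fold 0 members differed, where 0.511% of all genes were higher and 1.17% lower. Ndufaf4 was the higher one, by 0.48, and Ndufa4l2 the lower one, at −0.39. Next came Ndufb8 (0.26), Ndufab1 (0.26), Ndufs6 (0.23) and Cyc1 (0.21) on the higher side. On the lower side Cox7a2l was at −0.13, Ndufa6 at −0.11 and the c-ring gene Atp5g1 at −0.10. The members' median was 0 and so was that of all genes.

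As a description of these arrays, the members' differences as a set had a narrower spread than those of all measured genes, though not at every brightness. The interquartile range of their log2 differences was 0.05 on the shHIF-1a-labelled array and 0.09 on the shHIF-2a-labelled array, against 0.14 and 0.23 in the same order over all measured genes. Brightness goes with this spread: among all genes with a mean of at least 8 on the log2 scale the ranges were 0.08 and 0.13, and among the 25 members that bright they were 0.03 and 0.07. By the chosen probe sets, 10 members (13.5%) read exactly the same on the 3 arrays, against 12.1% of all measured genes. These were Ndufb7, Ndufb11, Ndufc2, Uqcr10, Cox6b1, Cox6c, Atp5d, Atp5e, Atp5md and Atp5o. Other measured probe sets of Ndufb7, Ndufb11, Cox6b1, Cox6c and Atp5o did differ from control, by up to 0.10 (Cox6b1, shHIF-2a). Exact ties of this kind can arise in RMA's median polish over few arrays, and a small difference may then not have been recorded.

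A technical spread was available where a gene had several measured probe sets. Among 29 members with 63 such probe sets, the pooled SD of the log2 difference between probe sets of a gene was 0.08 for the shHIF-1a-labelled array against control, 0.10 for the shHIF-2a-labelled array against control and 0.06 between the hairpins. Over 649 genes it was 0.12, 0.21 and 0.14 in the same order. This spread is technical, from 1 pair of arrays, and does not measure how cultures vary. Members past the threshold were picked by the size of their difference, so they are not set against this SD. Of the 74 chosen probe sets, 35 carry no suffix, 27 carry the suffix for several transcripts of 1 gene, 8 carry the suffix for probes shared between genes and 4 the suffix for partly similar sequences, as the probe set names show. The 8 shared ones were those of Ndufa2, Ndufab1, Ndufb4, Uqcrq, Atp5c1, Atp5d, Atp5e and Atp5j2, whose values may include a relative of the gene. The 4 with partly similar sequences were those of Ndufa12, Cox5b, Cox7a2l and Cox8a. Whether they read these genes alone was not tested. One member, Ndufs5-ps, is annotated as a pseudogene, at 203.2 and 194.8 on the shHIF-1a-labelled and shHIF-2a-labelled arrays, against 194.8 on control, and whether its probes also read the parent gene was not tested.

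**Figure D3:**
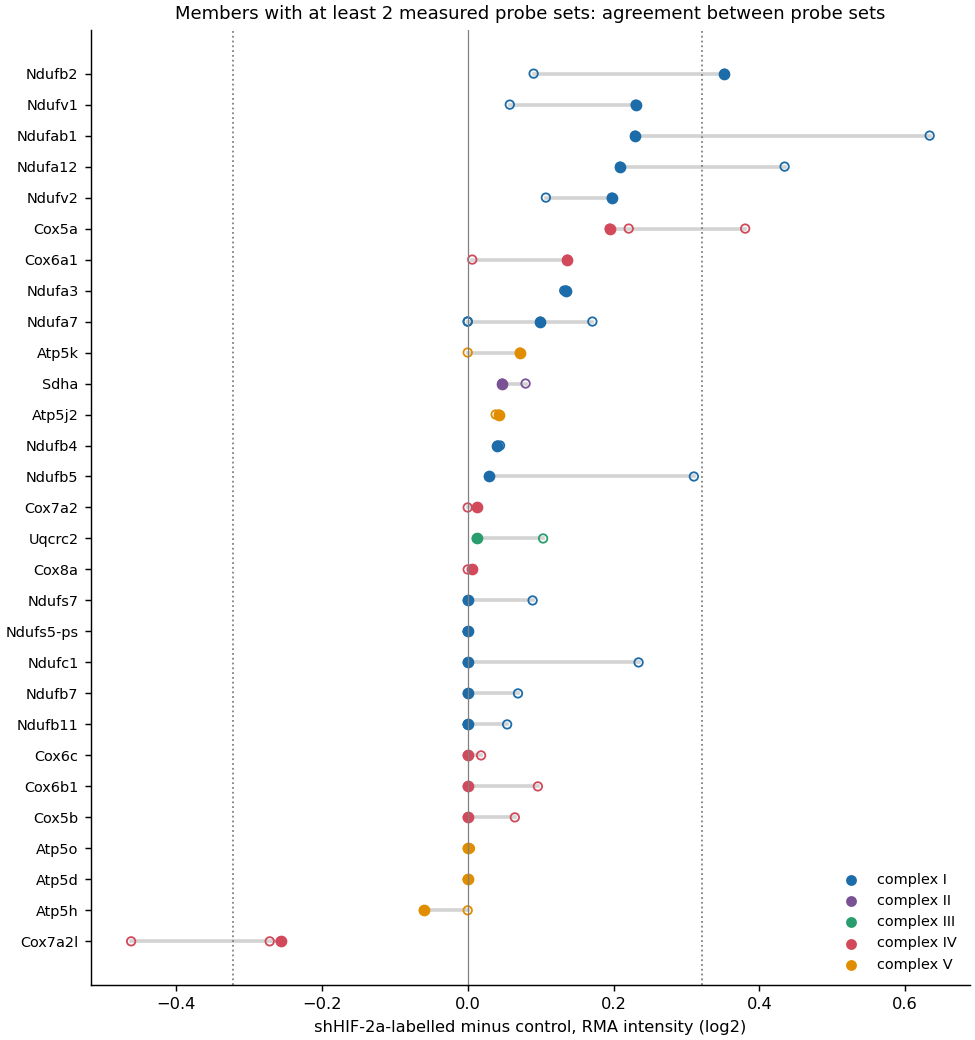
Log2 difference of the shHIF-2a-labelled array from control for each measured probe set of the 29 members with at least 2 of them. Filled points are the probe sets with the highest mean, open points are the others, grey lines join the probe sets of a gene and dotted lines mark the threshold of 0.32 either way. The probe sets of Cox7a2l all lie between −0.46 and −0.26, and those of Ndufb2 and Ndufab1 lie on both sides of the upper dotted line.

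Several complex IV and V subunits come in isoforms used in different tissues or oxygen levels. The widely expressed forms among the members were measured, and the muscle, heart or testis forms lay under the minimum of 64 on every array. Cox7b, the partner of Cox7b2, was not among the members, so that family was seen through Cox7b2 alone. Cox4i1 read 489.4 on both shRNA arrays, against 463.5 on control, whereas Cox4i2, the low-oxygen and lung form, read 6.72 on both, against 6.18 on control, above the nonspecific level but far under the minimum. Cox6a2 and Cox8b, of heart and skeletal muscle, and Cox8c and Cox7b2, of testis, lay under the nonspecific level on every array, where no fold is given. Cox7a1, of heart and muscle, was dim, at 7.61 on both shRNA arrays against 5.08 on control, and Cox6b2, of testis, read 14.2 (shHIF-1a) and 12.6 (shHIF-2a), against 14.2 (control). Of 6 striated muscle markers at most 1 lay above the nonspecific level on any array. All 3 genes of the ATP synthase c-ring, whose products give the same mature protein, were measured. Atp5g1 read 138.7 and 129.1 on the shHIF-1a-labelled and shHIF-2a-labelled arrays, against 128.9 on control, Atp5g2 read 265.4 (shHIF-1a) and 264.4 (shHIF-2a), against 264.4 (control), and Atp5g3 read 514.7 (shHIF-1a) and 498.2 (shHIF-2a), against 485.7 (control).

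**Figure D4:**
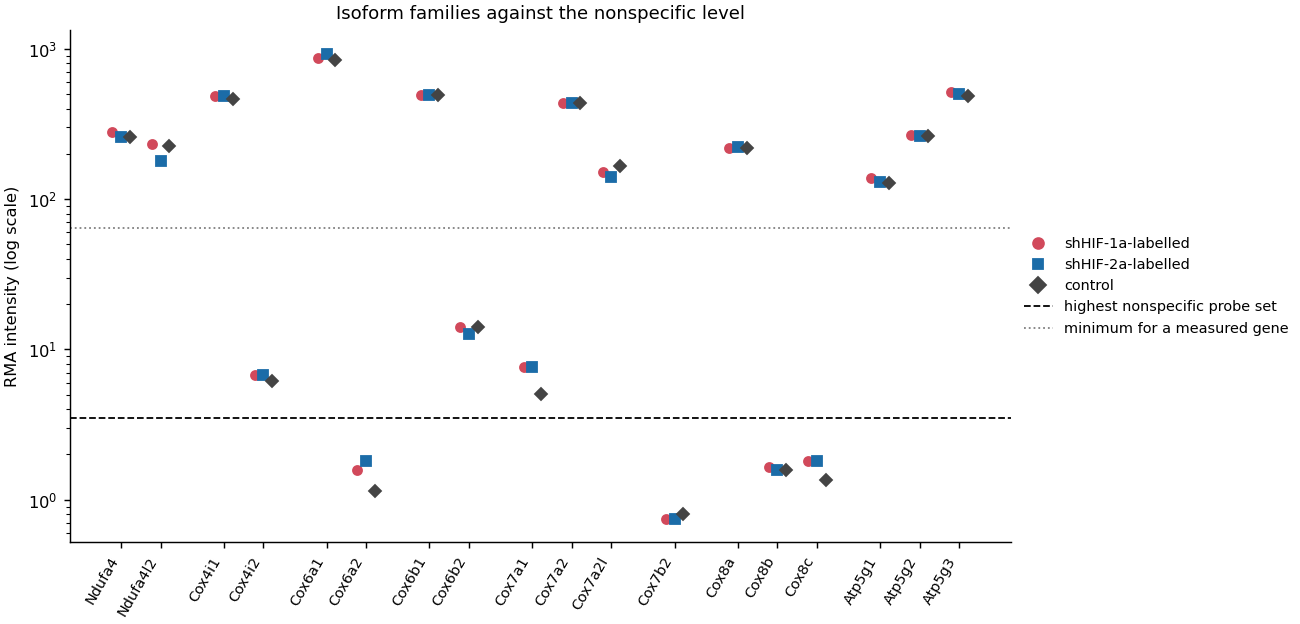
RMA intensity on a log axis for isoform families, with 1 point per array (shHIF-1a-labelled, shHIF-2a-labelled, control). The dashed line is the highest nonspecific probe set, 3.47, and the dotted line the minimum of 64. Cox6a2, Cox7b2, Cox8b and Cox8c lie under the dashed line on all arrays, and levels of different probe sets are not compared with each other.

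Assembly factors for complexes I and II were mostly dim. Of the 14 members between the nonspecific level and the minimum, 4 were past the threshold above control on the shHIF-1a-labelled array and 0 below it. Among all 6179 genes in that range, 37.2% were higher and 1.81% lower. On the shHIF-2a-labelled array 4 were higher and 0 lower, where 43.8% of all such genes were higher and 3.93% lower, so in neither case did the members exceed the background. Between the hairpins 0 of the 14 passed it, where 14.6% of all such genes were higher on the shHIF-2a-labelled array and 5.37% lower. In both comparisons with control the 4 were Cox7a1, described with the isoforms, and the assembly genes Ndufaf5, Ndufaf6 and Sdhaf3. Ndufaf5, a hydroxylase of a complex I core subunit, read 15.4 and 14.6 on the shHIF-1a-labelled and shHIF-2a-labelled arrays, against 8.92 on control. Ndufaf6 read 8.60 (shHIF-1a) and 10.3 (shHIF-2a), against 4.64 (control), and Sdhaf3, which helps to mature the iron-sulphur subunit of complex II, read 16.7 (shHIF-1a) and 20.7 (shHIF-2a), against 11.9 (control). Control was the lowest array for all of them, and so it was for the upper quartile of all probe sets, at 13.0 (shHIF-1a) and 13.9 (shHIF-2a), against 9.81 (control). The part of that shift in these dim values was not tested. Ndufaf1, a factor for the membrane arm, read 42.5 (shHIF-1a) and 47.3 (shHIF-2a), against 38.1 (control), just under the threshold at 0.31 on the shHIF-2a-labelled array. The other assembly genes, Ndufaf2, Ndufaf3, Ndufaf8, Sdhaf1, Sdhaf2 and Sdhaf4, lay between −0.02 and 0.10 in both comparisons with control. Sdhaf4, at 62.3 (shHIF-1a) and 58.6 (shHIF-2a), against 59.3 (control), was the member closest under the minimum of 64, and Ndufaf4, at 72.6 on its highest array, the one closest above it.

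Around the respiratory chain, 5 lists of mitochondrial genes were read in the same way. Of 14 measured genes for cytochrome c and assembly factors (of 34 on the array), 3 were past the threshold above control on the shHIF-2a-labelled array and none below it, and 2 were higher on the shHIF-1a-labelled array, where 14.5% (shHIF-2a) and 7.09% (shHIF-1a) of all measured genes were. Each count rests on a few single genes. Cycs, cytochrome c itself, read 190.1 and 240.0 on the shHIF-1a-labelled and shHIF-2a-labelled arrays, against 173.4 on control, or 0.13 (shHIF-1a) and 0.47 (shHIF-2a). Cox17, a copper chaperone for complex IV, read 132.5 (shHIF-1a) and 168.1 (shHIF-2a), against 132.5 (control), or 0 (shHIF-1a) and 0.34 (shHIF-2a) on the log2 scale. For both genes the shHIF-2a-labelled array stood apart from the others on the brightest probe set. With the mean of all its probe sets, Cycs was at −0.27 (shHIF-1a) and −0.0863 (shHIF-2a), so its direction turned.

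Cox18, which inserts a complex IV subunit into the membrane, read 43.0 and 68.4 on the shHIF-1a-labelled and shHIF-2a-labelled arrays, against 22.6 on control, or 0.93 (shHIF-1a) and 1.60 (shHIF-2a). Control was the lowest, and the gene counted as measured through the shHIF-2a-labelled array alone. Cox19, a further copper-handling factor, was past the threshold on the shHIF-1a-labelled array only, at 102.9 (shHIF-1a) and 93.0 (shHIF-2a), against 81.4 (control). The list's median was 0.05 on the shHIF-1a-labelled array and 0.15 on the shHIF-2a-labelled array, against 0.01 and 0.02 over all genes.

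Among 12 measured genes of the citrate cycle and pyruvate dehydrogenase, 2 were higher on the shHIF-2a-labelled array and 0 on the shHIF-1a-labelled array, near the 14.5% (shHIF-2a) and 7.09% (shHIF-1a) of all measured genes. Idh3a, a subunit of the NAD-dependent isocitrate dehydrogenase, read 91.4 and 121.7 on the shHIF-1a-labelled and shHIF-2a-labelled arrays, against 82.7 on control, or 0.56 on the shHIF-2a-labelled array. Suclg2, a subunit of succinyl-CoA ligase, read 58.5 (shHIF-1a) and 67.4 (shHIF-2a), against 53.6 (control), or 0.33, and like Cox18 was measured through the shHIF-2a-labelled array alone. Cs, citrate synthase, read 179.0 (shHIF-1a) and 155.2 (shHIF-2a), against 179.0 (control), and so was below control on the shHIF-2a-labelled array by less than the threshold.

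Only 1 of the 14 regulators of mitochondrial gene expression on the array was measured. Yy1, a zinc-finger factor with known sites in many respiratory chain promoters, read 169.3 and 204.1 on the shHIF-1a-labelled and shHIF-2a-labelled arrays, against 162.7 on control, or 0.06 (shHIF-1a) and 0.33 (shHIF-2a). The other 13 were dim, Tfam, the packaging factor of mitochondrial DNA, at 29.6 (shHIF-1a) and 33.01 (shHIF-2a), against 30.8 (control).

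Of 8 measured genes that act on or in mitochondria and are known to be induced by HIF in other cells, none was past the threshold on the shHIF-1a-labelled array, and 2, Ndufa4l2 and Mxi1, were lower on the shHIF-2a-labelled array, where 1.06% (shHIF-1a) and 7.34% (shHIF-2a) of all measured genes were lower. Mxi1, a MYC antagonist, read 135.7 and 122.3 on the shHIF-1a-labelled and shHIF-2a-labelled arrays, against 153.0 on control, or −0.32 on the shHIF-2a-labelled array, and with the mean of all its probe sets it was above control there, at 0.11. Pdk1, which blocks pyruvate dehydrogenase, read 181.8 on every array, and Bnip3, a mitophagy receptor, read 867.3 (shHIF-1a) and 857.6 (shHIF-2a), against 867.3 (control). Of 6 measured carriers and porins none was past the threshold. The lowest was Vdac1, a pore of the outer membrane, at 487.7 (shHIF-1a) and 520.6 (shHIF-2a), against 576.0 (control).

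**Figure D5:**
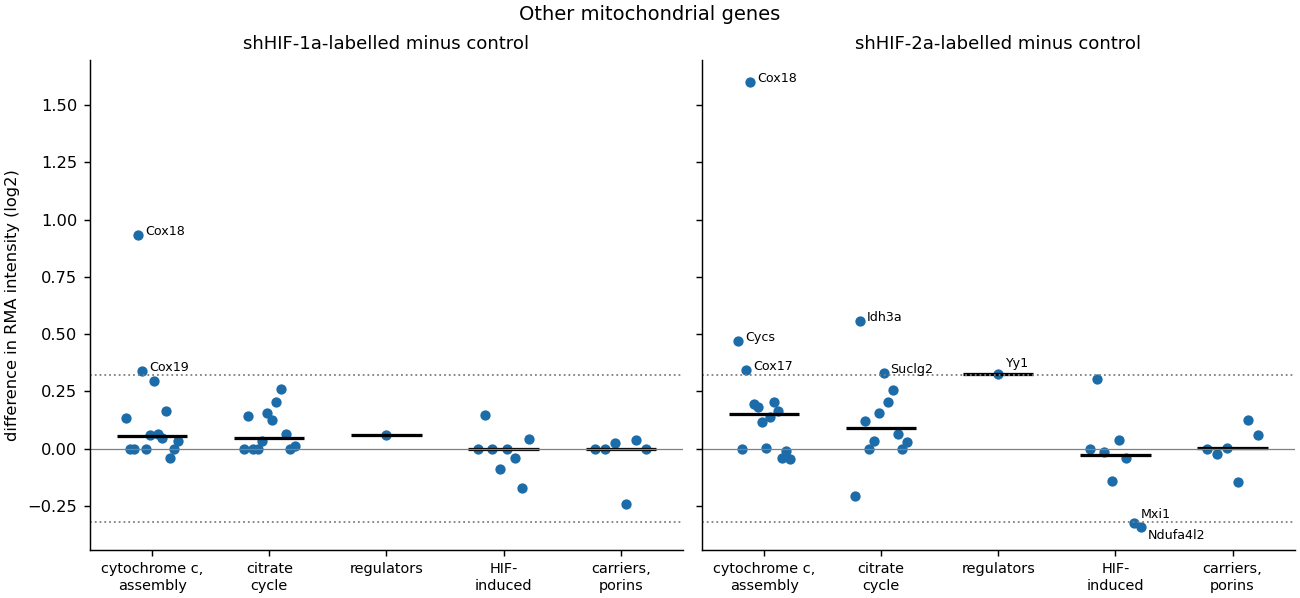
Log2 difference in RMA intensity from control of the measured genes of 5 mitochondrial lists, for the shHIF-1a-labelled array (left) and the shHIF-2a-labelled array (right). Bars are medians and dotted lines mark the threshold of 0.32 either way. Cox18 is the highest gene in both panels, at 0.93 and 1.60, and Mxi1 and Ndufa4l2 are the only genes below the lower line.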

How the data were processed

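The authors deposited 1 table of linear intensity values for 45141 probe sets on 3 arrays. The submitters' processing notes name RMA, whose version and settings the sources used here leave unstated. Per the labels' protocols, biotin-labelled cRNA was made from 1 µg of total RNA. Each deposited intensity was put on the log2 scale without rescaling. The platform annotation listed 29449 probe sets, of which 28898 had 1 gene and 551, with several, were left out, as were 104 controls. All 92 members matched RefSeq by Entrez identifier, and that table gave names, gene class and promoters alone.

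Groups came from the array titles. Genes at least 25% higher, or lower by the same factor, and genes past 2-fold were counted among those of at least 64 on 1 array, over the whole table. The members, the gene lists, the minimum and the folds were chosen with earlier results of these data known. Genes named are fixed isoforms and core subunits, the 5 highest and 5 lowest of each comparison, the ends of each complex, disagreeing or shared probe sets, list genes past the smaller threshold, Hif1a and Epas1. Further genes (such as Nrf1, Tfam, Pdk1, Bnip3, Vdac1, Cs and the dim assembly factors) were named after their values were seen.

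Alternatives were minimums of 16, of none and of a mean of 64, cyclic loess (limma 3.58.1 in R 4.3.3), the mean of all probe sets of a gene, 32 added before log2, and subunits alone. Counting was done in Python 3.11.15 with numpy 2.4.6, pandas 2.3.3 and matplotlib 3.10.9, and the scripts were tested on simulated data. Precision is limited by having 3 arrays in all.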

Additional observations from a re-analysis of the deposited data

How the results depend on the processing

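No paired analysis was possible because each group holds 1 array. Over 44 genes followed singly (27 members named by rank, and 17 dim members, list genes and markers past the threshold of 0.32 on the log2 scale), 40 differences were past that threshold. Under cyclic loess, the mean of all probe sets and 32 added they gave 120 values, of which 118 kept their sign. Adding 32 to both values cannot turn a sign, and for a gene with 1 probe set the mean repeats the value already given. Those values were fixed in advance, so the share that kept its sign is no measure of how firm the differences are. The 2 that turned, both with the mean of all probe sets and between the shHIF-2a-labelled and control arrays, were Cycs (−0.0863) and Mxi1 (0.11). Of 5 members past it between the shHIF-2a-labelled and control arrays, 11 were counted with no minimum (with Sdhaf3, Ndufaf5, Ndufaf6, Cox7a1, Cox6a2 and Cox8c added, the last 2 under the nonspecific level), 3 with the mean of all probe sets (Uqcrc1, Ndufa4l2 and Cox7a2l; Ndufaf4, at 0.98, and Ndufb8, at 0.44, were larger but under the minimum, and Ndufb2 was at 0.22) and 1 with 32 added (Ndufaf4, at 0.50). With cyclic loess Ndufb2 (0.29) and Uqcrc1 (0.28) fell short, and Ndufa6 (−0.35) was counted beside Ndufaf4 (0.67), Ndufb8 (0.33) and Ndufa4l2 (−0.36). Of 0 members between the shHIF-1a-labelled and control arrays, 1 was counted at a minimum of 16 and 6 with no minimum. Of 2 between the hairpins, 1 was counted, Ndufa4l2, at a mean of 64, with the mean of all probe sets, with 32 added or with subunits alone.

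Over all genes, the count between the shHIF-1a-labelled and control arrays was 223 and became 1276 at a minimum of 16, 4361 with none, 132 with the mean of all probe sets and 98 with 32 added. Between the shHIF-2a-labelled and control arrays it was 597 and became 2020, 5340, 330 and 373 in the same order. Between the hairpins it was 455 and became 1127 and 1920 at those minimums and 262 with the mean of all probe sets. Adding 32 to both values of a gene shrinks the fold between them by arithmetic, and that setting counted the same 2738 genes. The cause of the other shifts was not tested, beyond the number of genes that enter a count. Signal over background limits the dim members, and ties between arrays may hide small differences.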
